A study of Mus musculus with 16 samples.

Results

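The glycolytic enzymes described here were the transcripts of 10 genes, Hk1, Gpi1, Pfkl, Aldoa, Tpi1, Gapdh, Pgk1, Pgam1, Pkm and Ldha, taken by mouse symbol and given in the order of the pathway, by a rule that uses no measured value but that was set with earlier results of these data known. They were 10 of 46517 gene identifiers in the deposited tables, and all 10 were among the 14933 genes with enough counts to be tested. Transcripts were measured by RNA sequencing in CD4+CD8+ (double-positive) thymocytes sorted from the thymi of mice aged 6 to 7 weeks, with 1 library per mouse and 16 libraries in all. All mice were NOD-AI4, that is, NOD mice carrying the AI4 T cell receptor of an autoreactive CD8 T cell. There were 5 NOD-AI4-60A mice, an Nfkbid transgenic line with 3 males and 2 females; 5 NOD-AI4-Nfkbid-/- mice, labelled as knockouts, with 4 males and 1 female; and 6 NOD-AI4 mice without either change, 3 males and 3 females, which served as controls. The promoter of the transgene was not given in the sources used here. Nfkbid encodes a nuclear regulator of NF-kappa-B, and the study asked how its gain and its loss change thymic deletion of these cells.

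Glycolysis splits glucose into pyruvate in the cytosol and yields ATP, NADH and precursors for nucleotides, lipids and amino acids. Hexokinase (Hk1), glucose phosphate isomerase (Gpi1), phosphofructokinase (Pfkl), aldolase (Aldoa) and triose phosphate isomerase (Tpi1) turn glucose into triose phosphate at the cost of ATP. Glyceraldehyde phosphate dehydrogenase (Gapdh), phosphoglycerate kinase (Pgk1), phosphoglycerate mutase (Pgam1), pyruvate kinase (Pkm) and lactate dehydrogenase (Ldha) carry triose phosphate to pyruvate and lactate and return ATP. Small resting thymocytes are known for low glucose use, while dividing thymocytes take up more, and Myc and the hypoxia factor HIF-1 are known to switch on many of these genes.

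Facts of the whole series bear on every comparison below. The libraries held 17955743 to 35637813 estimated counts. Every control mouse had an identifier of the AT series and every other mouse one of the LS series, so identifier series and group cannot be told apart in any comparison with controls; the comparison of transgenic with knockout-labelled mice alone lies within 1 series. Sex moved with depth among controls, with 25052921 to 26586220 counts in males and 17955743 to 18888169 in females. Nfkbid itself stood at 115 to 310 CPM (counts scaled to the library's size with the trimmed mean of M values, TMM) in transgenic libraries, 28.2 to 37.8 CPM in knockout-labelled libraries and 28.9 to 36.9 CPM in controls. A gene total does not show which exons the reads come from, so it does not test the deletion, and those libraries are called knockout-labelled throughout. The co-receptor genes that define double-positive thymocytes were present in every library: Cd4 stood at 666 to 773 CPM in transgenic, 708 to 844 CPM in knockout-labelled and 743 to 1125 CPM in control libraries, and Cd8a at 1677 to 1957 CPM in transgenic, 1697 to 2044 CPM in knockout-labelled and 1598 to 2342 CPM in control libraries. Against controls, Cd4 fell by 0.45 on the log2 scale in transgenic mice (SE 0.09, edgeR adjusted p = 0.000835) and by 0.35 in knockout-labelled mice (SE 0.09, adjusted p = 0.00918), and Cd8a fell by 0.25 in transgenic mice (SE 0.08, adjusted p = 0.0167) and had -0.20 in knockout-labelled mice (adjusted p = 0.0771).

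All 10 glycolytic enzymes were called higher in transgenic than in control thymocytes, and 7 of the 10 were called higher in knockout-labelled than in control thymocytes. Of the 10, Hk1 and Gpi1 lay near the threshold and were called in 8 and 6 of 34 other settings, and DESeq2 called the other 8. Against controls, 23.0% of all genes tested were called higher in transgenic and 16.4% in knockout-labelled mice, at an adjusted p under 0.05 in edgeR's quasi-likelihood test with sex as a covariate. The median log2 fold change of the 10 enzymes was 0.42 in transgenic mice, beside 0.03 over all genes, and 0.30 in knockout-labelled mice, beside 0.02 over all genes. The fold differences of the transgenic mice ran from 1.11 for Gpi1 to 1.95 for Tpi1, and those of the knockout-labelled mice from 1.05 for Hk1 to 1.57 for Tpi1. Between transgenic and knockout-labelled mice 0 of the 10 were called, where 1.17% of all genes were. The split of all called genes depended on the scaling: 3438 were higher and 2327 lower in transgenic mice, against 1938 and 3410 on log2(TPM + 1) and 2409 and 3328 after a correction for GC content and length; in knockout-labelled mice the split was 2449 and 1493, against 1326 and 1840 and 1969 and 2046. Under each of these scalings the 10 enzymes stayed above 0 in transgenic mice, and in knockout-labelled mice Hk1 alone turned, to -0.0054 after the GC and length correction. On log2(TPM + 1) 8 enzymes were called in transgenic and 6 in knockout-labelled mice, and 7 and 5 were called after that correction. In bulk samples a change in the share of cells that express a gene and a change of its RNA per cell cannot be told apart.

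**Figure D1:**
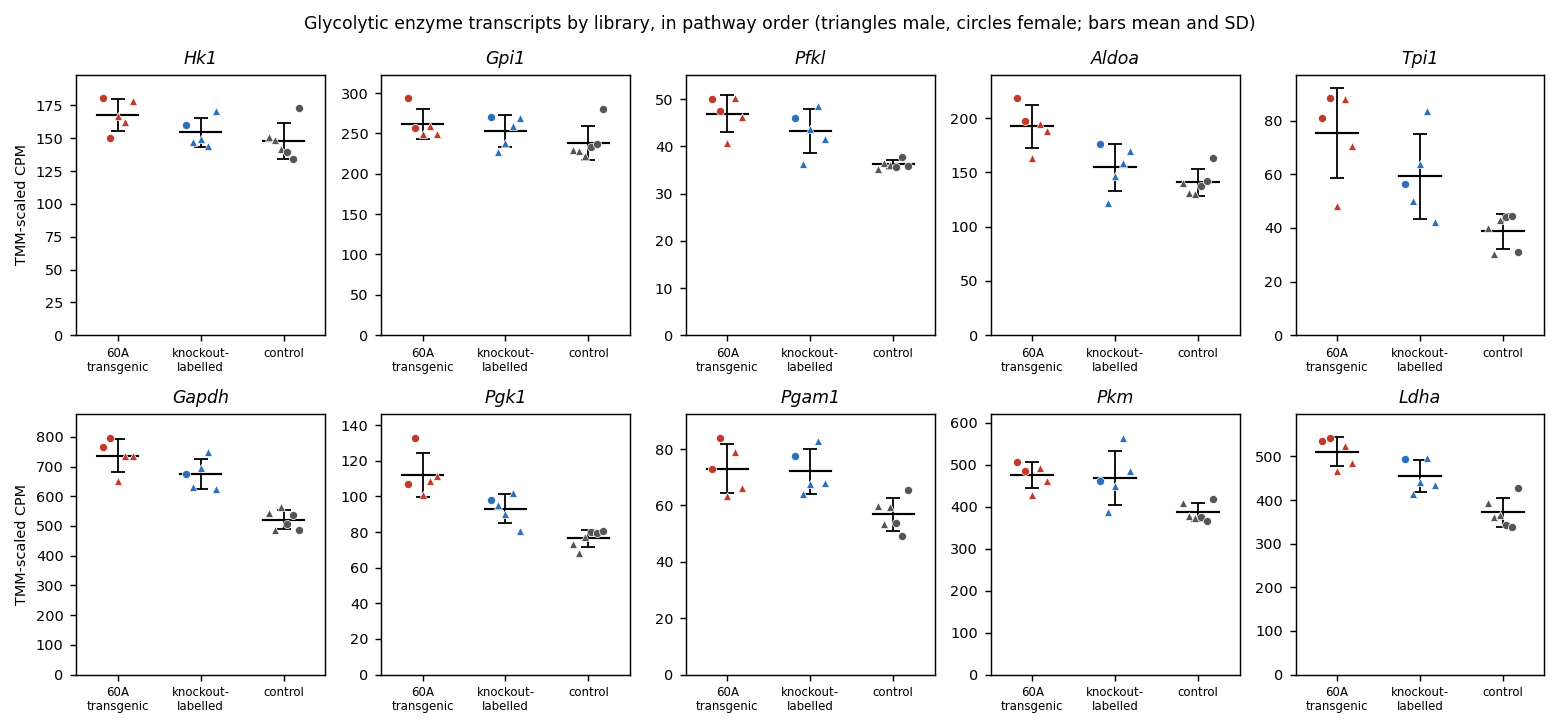
Each panel plots one enzyme, in pathway order, as TMM-scaled CPM on the vertical axis from 0; each point is 1 library (triangles male, circles female) of the 60A transgenic, knockout-labelled and control groups, with horizontal bars for the mean and error bars for the SD. The transgenic libraries lie wholly above the controls for Pfkl, Tpi1, Gapdh, Pgk1, Pkm and Ldha, and the knockout-labelled libraries do so for Gapdh.

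The enzymes differed widely in level. On the deposited scale of TPM, which scales reads by transcript length and by the library's total, Gapdh averaged 1192 ± 112 TPM in transgenic, 1103 ± 67.5 TPM in knockout-labelled and 929 ± 63.2 TPM in control mice (SD, n = 5, 5 and 6). Ldha came next with 536 ± 33.8, 496 ± 22.8 and 426 ± 24.7 TPM in the same groups, and Pkm was the third with 309 ± 20.0, 314 ± 36.7 and 269 ± 9.25 TPM. That order of Gapdh, Ldha and Pkm held in every library. Aldoa and Gpi1 followed. Aldoa was above Gpi1 in 5 of 5 transgenic libraries but in 3 of 5 knockout-labelled and 3 of 6 control libraries, so the levels of these neighbours were not separated outside the transgenic group. Pgk1, Tpi1, Hk1 and Pgam1 formed a lower tier of 52.0 to 99.1 TPM by group mean, in which most neighbours swapped places between libraries. The place of Pgk1 leaves out its identical copies: with them it stood at 204.5 to 257.1 CPM in transgenic, 196.9 to 244.4 CPM in knockout-labelled and 158.6 to 183.3 CPM in control libraries, against 100.8 to 133.1, 80.5 to 101.7 and 68.5 to 80.7 CPM on the gene alone, so its rank is uncertain. Tpi1 ranked 7 in the transgenic and knockout-labelled groups and 9 in controls. Pfkl was the lowest everywhere, with 28.5 ± 3.53 TPM in transgenic, 27.7 ± 2.33 TPM in knockout-labelled and 23.1 ± 1.203 TPM in control mice. Summed over the 10 enzymes, the level was 2839 ± 220 TPM in transgenic, 2636 ± 142 TPM in knockout-labelled and 2277 ± 56.2 TPM in control mice, or 0.284%, 0.264% and 0.228% of all TPM.

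Hk1, the hexokinase that phosphorylates glucose on entry, had the smallest estimates against controls along with Gpi1, which converts glucose 6-phosphate into fructose 6-phosphate. Hk1 stood at 150.4 to 180.4 CPM in transgenic, 144.2 to 170.6 CPM in knockout-labelled and 134.4 to 173.3 CPM in control libraries. Gpi1 stood at 248.8 to 293.5 CPM in transgenic, 226.7 to 270.3 CPM in knockout-labelled and 221.8 to 280.1 CPM in control libraries. The groups overlapped for both genes. In transgenic mice the log2 fold change against controls was 0.18 (SE 0.07, edgeR adjusted p = 0.0443) for Hk1 and 0.15 (SE 0.06, adjusted p = 0.0470) for Gpi1, close to the threshold. In the 16 fits that each left out 1 library, the call of Hk1 was lost in 14, all but those without control 6 or transgenic 2. The call of Gpi1 was lost in 15, all but the fit without control 6, and the lost calls had adjusted p of 0.0544 to 0.186 for Hk1 and 0.0563 to 0.197 for Gpi1. In knockout-labelled mice neither was called, with log2 fold changes of 0.06 (95% interval -0.08 to 0.21) for Hk1 and 0.13 (95% interval 0.003 to 0.25, adjusted p = 0.120) for Gpi1.

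Pfkl, the liver-type subunit of phosphofructokinase, which commits sugar to glycolysis, read 50.002, 47.4, 40.7, 50.2 and 46.3 CPM in the transgenic libraries. It read 46.1, 36.3, 43.8, 48.7 and 41.6 CPM in the knockout-labelled libraries, and 35.2, 35.9 and 37.8 CPM as the lowest, median and highest of the 6 controls. The controls were tightly grouped, with a coefficient of variation of 2.58%, and all transgenic libraries and 4 of 5 knockout-labelled libraries lay above them. The log2 fold change was 0.38 in transgenic mice (SE 0.07, edgeR adjusted p = 0.000420) and 0.28 in knockout-labelled mice (SE 0.07, adjusted p = 0.00729).

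Aldoa, the aldolase that cleaves fructose bisphosphate into triose phosphates, had the second largest estimate between transgenic and knockout-labelled mice, a log2 fold change of 0.28 (SE 0.08, edgeR adjusted p = 0.123) that was not called. It read 218.3, 197.7, 163.4, 194.3 and 188.0 CPM in transgenic libraries, and 176.3, 121.9, 146.4, 159.0 and 169.8 CPM in knockout-labelled libraries. The 6 controls had 129.8, 138.9 and 163.5 CPM as lowest, median and highest. In all, 4 of the 5 transgenic libraries were above every control, while the knockout-labelled libraries lay on both sides of the control range. Against controls the log2 fold change was 0.47 in transgenic mice (SE 0.07, edgeR adjusted p = 0.000208) and 0.19 in knockout-labelled mice (SE 0.08, adjusted p = 0.0785) and was not called in the knockout-labelled mice. Without knockout-labelled library 2, the lowest, it was 0.23 with an adjusted p of 0.0176.

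Tpi1, which interconverts the triose phosphates so that both can proceed, had the largest fold change and also the widest scatter. It read 80.9, 88.3, 48.3, 88.2 and 70.6 CPM in transgenic libraries, and 56.3, 50.1, 63.9, 83.6 and 42.2 CPM in knockout-labelled libraries. The 6 controls had 30.3, 41.5 and 44.5 CPM as lowest, median and highest. All transgenic libraries lay above the controls, and 4 of 5 knockout-labelled libraries did. The coefficient of variation within groups was 22.2% in transgenic, 26.7% in knockout-labelled and 16.9% in control mice. The log2 fold change was 0.96 in transgenic mice (SE 0.19, edgeR adjusted p = 0.00148) and 0.65 in knockout-labelled mice (SE 0.20, adjusted p = 0.0260). The call in knockout-labelled mice was lost in 12 of 34 settings, among them the fits without control 2 (0.56, adjusted p = 0.0801), knockout-labelled 3 (0.59, adjusted p = 0.0623) or knockout-labelled 4 (0.46, adjusted p = 0.0732), and on log2(TPM + 1) with limma (0.50, adjusted p = 0.0732).

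Gapdh, which oxidises glyceraldehyde 3-phosphate and makes NADH, was above the controls in every mouse of both other groups. It read 766.0, 797.5, 649.8, 735.0 and 734.4 CPM in transgenic libraries, and 676.1, 630.9, 693.8, 750.3 and 624.1 CPM in knockout-labelled libraries. The 6 controls had 487.3, 521.5 and 563.7 CPM as lowest, median and highest. Every transgenic and every knockout-labelled library was above every control, and the transgenic and knockout-labelled ranges overlapped. The log2 fold change was 0.50 in transgenic mice (SE 0.06, edgeR adjusted p = 3.15e-05) and 0.38 in knockout-labelled mice (SE 0.06, adjusted p = 0.000829). The smallest p that an exact two-sided permutation of 5 against 6 libraries allows is 0.0022, and both comparisons reached it.

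Gapdh counts were divided among near-identical sequences. The GENCODE M21 annotation of GRCm38 holds 161 other genes with a transcript at least 90% identical to Gapdh (chr6:125161715-125166467, minus strand) over 300 or more nucleotides, and 129 of them carried counts that summed to 94.2% of the counts on Gapdh itself. Most lay on the processed pseudogene Gm13394 (chr2:28933610-28934609, minus strand), which aligned to the Gapdh transcript over 1000 nucleotides with 1 difference. The stretch around that difference is shown because it is the only place in that alignment where a read could tell the genes apart. The capital marks the base that differs, A31C counting from 1 at the left end, in nucleotides 408 to 468 of the Gapdh transcript and 316 to 376 of Gm13394.
Gapdh: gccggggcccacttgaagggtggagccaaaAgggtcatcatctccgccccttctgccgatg
Gm13394: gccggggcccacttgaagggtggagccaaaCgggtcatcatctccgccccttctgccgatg
Gm13394 took 44.4% to 49.5% of the counts of the pair in every library, and its own log2 fold change was 0.42 in transgenic and 0.30 in knockout-labelled mice, close to that of Gapdh. With the counts of all copies added, Gapdh stood at 1246 to 1481 CPM in transgenic, 1201 to 1426 CPM in knockout-labelled and 994.1 to 1085 CPM in control libraries, and its log2 fold changes were 0.45 and 0.34. The level of Gapdh given above leaves these copies out. Within the aligned stretches, reads of the gene and of its copies cannot be told apart outside the differing bases.

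Pgk1 (chrX:106187100-106203699, plus strand), which passes a phosphate to ADP to make ATP, read 106.8, 133.1, 100.8, 108.9 and 111.7 CPM in transgenic libraries. It read 97.8, 94.98, 90.2, 101.7 and 80.5 CPM in knockout-labelled libraries, and 68.5, 78.5 and 80.7 CPM as the lowest, median and highest of the 6 controls. All transgenic and 4 of 5 knockout-labelled libraries lay above the controls, and knockout-labelled library 5 lay within them. The log2 fold change was 0.56 in transgenic mice (SE 0.06, edgeR adjusted p = 1.60e-05) and 0.32 in knockout-labelled mice (SE 0.07, adjusted p = 0.00232). Between transgenic and knockout-labelled mice it was 0.24 (SE 0.07), with an unadjusted p of 0.00208 in edgeR and an adjusted p of 0.104. Its copies held more counts than the gene: Gm5537 (chr3:58102996-58104247), identical to Pgk1 over 1252 nucleotides, and Pgk1-rs7 (chr12:10898986-10900240), identical over 1255, together had 125% of the counts on Pgk1. Between transgenic and knockout-labelled mice the log2 fold change was 0.07 for Gm5537 and -0.23 for Pgk1-rs7, and neither was called. With the copies added, the transgenic against knockout-labelled difference of Pgk1 was 0.10 (SE 0.07, adjusted p = 0.735), while those from controls were 0.45 and 0.35 and stayed past the threshold.

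**Figure D2:**
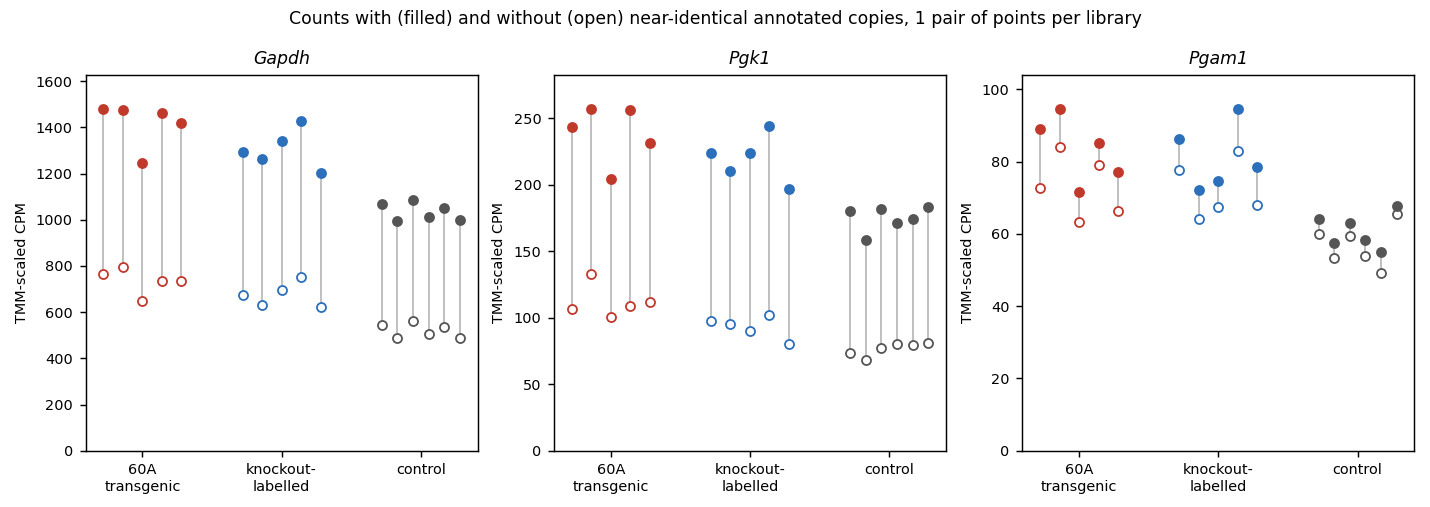
For Gapdh, Pgk1 and Pgam1, each library has an open point for the counts on the gene alone and a filled point for the gene with its near-identical annotated copies, in TMM-scaled CPM from 0. Most of the added counts are on Gapdh and Pgk1 in all 3 groups, and transgenic and knockout-labelled libraries stay above the controls for Gapdh with or without them.

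Pgam1, which moves the phosphate of phosphoglycerate, and Pkm, the pyruvate kinase of most tissues outside liver and red cells, rose in both groups. Pgam1 stood at 63.2 to 84.1 CPM in transgenic, 64.2 to 83.0 CPM in knockout-labelled and 49.3 to 65.4 CPM in control libraries, with log2 fold changes of 0.37 (SE 0.09, edgeR adjusted p = 0.00350) and 0.36 (SE 0.09, adjusted p = 0.00684). The processed pseudogene Pgam1-ps2 (chr7:27469771-27470535), identical to Pgam1 over 765 nucleotides, had a log2 fold change of 1.36 in transgenic and 1.24 in knockout-labelled mice, and with its counts added those of Pgam1 were 0.46 and 0.44. Pkm stood at 427.5 to 506.3 CPM in transgenic, 386.4 to 564.6 CPM in knockout-labelled and 365.3 to 419.3 CPM in control libraries. Its log2 fold changes were 0.30 (SE 0.08, edgeR adjusted p = 0.00546) and 0.29 (SE 0.08, adjusted p = 0.0123). Knockout-labelled library 4 was the highest of its group for 7 of the 10 enzymes, and transgenic library 3 the lowest of its group for 9 of the 10. Gene totals do not separate the M1 and M2 splice forms of Pkm.

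Ldha, the lactate dehydrogenase subunit that favours the making of lactate, read 534.5, 543.3, 467.2, 523.1 and 484.2 CPM in transgenic libraries. It read 493.1, 413.5, 442.5, 496.1 and 435.0 CPM in knockout-labelled libraries, and 338.7, 364.4 and 427.7 CPM as the lowest, median and highest of the 6 controls. All transgenic and 4 of 5 knockout-labelled libraries lay above the controls. The log2 fold change was 0.46 in transgenic mice (SE 0.07, edgeR adjusted p = 8.54e-05) and 0.31 in knockout-labelled mice (SE 0.07, adjusted p = 0.00305).

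**Figure D3:**
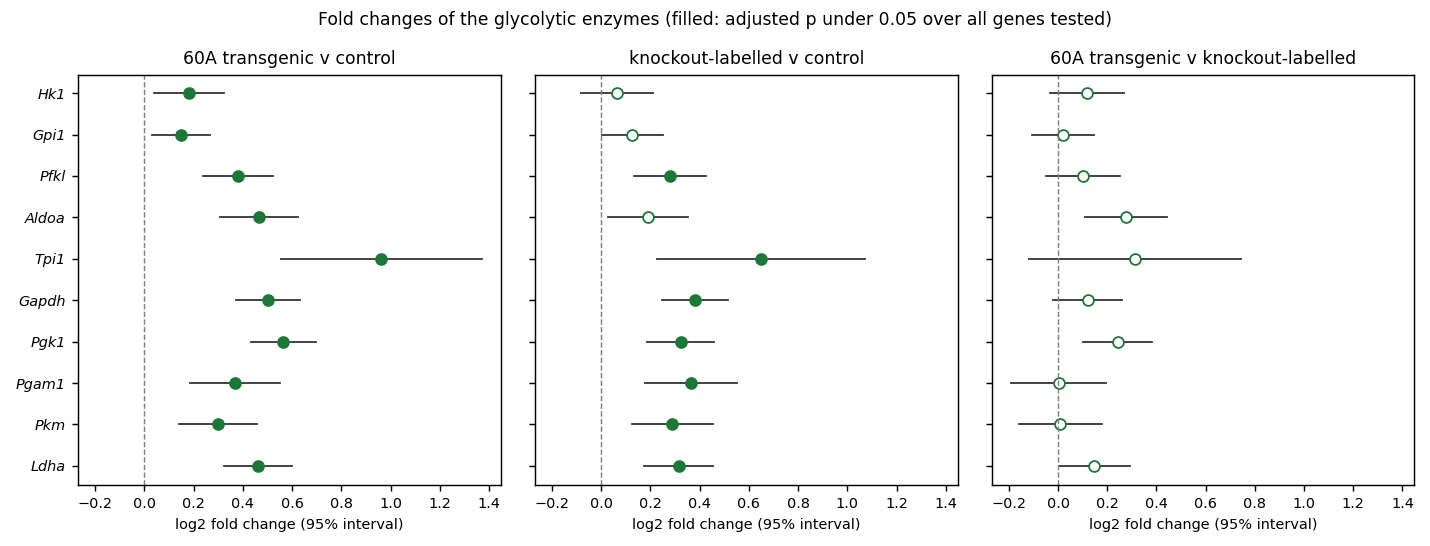
Log2 fold changes (horizontal axis) with 95% intervals for the 10 enzymes in pathway order from the top, for transgenic against control, knockout-labelled against control, and transgenic against knockout-labelled mice; filled points have an adjusted p under 0.05 over all genes tested. All 10 points are filled in the left panel, 7 in the middle panel and 0 in the right panel.

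Counted by range, 6 of the 10 enzymes had every transgenic library above every control, where 13.7% of all genes did so. In knockout-labelled mice 1 of 10, Gapdh, did so, where 8.77% of all genes did. Between transgenic and knockout-labelled mice, 0 of 10 enzymes were called by edgeR, where 174 genes were, and 0 of 10 had ranges apart, where 2.33% of all genes were apart and higher in transgenic mice. At an unadjusted p under 0.05 in edgeR there were 3, Aldoa, Pgk1 and Ldha, where 1408 of all 14933 genes were. DESeq2 called 0 enzymes and limma-voom called 0. All 10 estimates were above 0, from 0.002 for Pgam1 to 0.31 for Tpi1 on the log2 scale, with a median of 0.12 beside 0.0004 over all genes. The 95% intervals reached 0.44 for Aldoa, 0.74 for Tpi1 and 0.20 for Pgam1, so differences up to those sizes lie inside what these libraries allow.

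Aldoa had an interval of 0.11 to 0.44 in that comparison, and Gapdh one of -0.02 to 0.26. The signs of Gpi1, Pgam1 and Pkm, with main estimates near 0 in that comparison, turned in some of the other settings. Pkm reached -0.18 without the libraries high in class II transcripts, a fit that kept only knockout-labelled libraries 4 and 5 of that group. Sex did not separate the enzymes past the threshold. Males against females gave 0 of 10 calls by edgeR, where 0.141% of all genes were called, and 0 by DESeq2 or limma-voom. At an unadjusted p under 0.05 in edgeR there were 3 (Gpi1, Aldoa and Pgk1), where 1614 of all 14933 genes were. All 10 male against female estimates were below 0, from -0.18 to -0.01 on the log2 scale. The difference of the transgenic effect between sexes gave 0 calls of 10 by edgeR, where 0.0278% of 14385 genes were called, and 0 by DESeq2 or limma-voom. At an unadjusted p under 0.05 in edgeR there were 0 enzymes, where 1976 of the 14385 genes were. Within males alone, 4 enzymes were called in transgenic mice (Aldoa, Gapdh, Pgk1 and Ldha) and 3 in knockout-labelled mice (Gapdh, Pgk1 and Ldha). All 10 estimates were above 0 in both groups of males. The males-only counts are not set beside the share of all genes called higher in that fit, so they show no excess by themselves.

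Promoter sequences are shown for Ldha and Pgk1, called in both groups, and for Gpi1, among the least changed, because HIF-1 and Myc are known to bind short motifs near such genes. RefSeq sequences (GRCm38.p6) of the 250 bases before each start site were searched on both strands for ACGTG, the core of the hypoxia response element, for CACGTG, an E-box bound by Myc and related factors, and for GGGCGG, the GC box. A CACGTG holds ACGTG on both strands, so the searches overlap. Capitals mark ACGTG or its reverse complement.
Ldha, chr7:46845554-46845803, plus strand: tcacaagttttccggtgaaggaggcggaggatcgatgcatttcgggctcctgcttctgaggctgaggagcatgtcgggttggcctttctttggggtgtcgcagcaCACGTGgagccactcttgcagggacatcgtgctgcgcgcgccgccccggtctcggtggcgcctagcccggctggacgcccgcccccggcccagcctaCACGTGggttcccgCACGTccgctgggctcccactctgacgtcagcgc
Pgk1, chrX:106186850-106187099, plus strand: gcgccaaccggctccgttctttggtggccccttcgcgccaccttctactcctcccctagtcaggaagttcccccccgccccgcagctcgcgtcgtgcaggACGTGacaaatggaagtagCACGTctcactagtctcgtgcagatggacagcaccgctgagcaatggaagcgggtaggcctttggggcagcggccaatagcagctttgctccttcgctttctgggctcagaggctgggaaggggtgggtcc
Gpi1, chr7:34230337-34230586, minus strand: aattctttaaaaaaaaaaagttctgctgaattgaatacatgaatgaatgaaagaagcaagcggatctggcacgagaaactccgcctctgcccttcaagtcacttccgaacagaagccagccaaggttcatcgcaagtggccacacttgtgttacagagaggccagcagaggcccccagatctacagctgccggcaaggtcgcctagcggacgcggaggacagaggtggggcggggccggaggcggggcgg
ACGTG was present before at least 1 start site of 5 of the 10 enzymes, Aldoa, Pgk1, Pgam1, Pkm and Ldha, and of 18.5% of 27025 genes. By window, ACGTG was in 6 of 15 windows of the enzymes and in 16.6% of 32851 windows. The Aldoa windows chr7:126799179-126799428 and chr7:126799255-126799504 overlap and hold the same site, which is counted in each. The Ldha window shown had 5 matches by strand, in 2 CACGTG runs and 1 further ACGTG, and the Pgk1 window had 2. A second Ldha window, chr7:46846832-46847081, had 0. CACGTG was present for Ldha alone among the 10, beside 6.86% of genes, and GGGCGG for 6 of the 10, beside 35.4%. Of the enzymes called in both groups, Pfkl, Tpi1 and Gapdh had no ACGTG in these windows, and their sequences are not shown. A link between motif and fold change was not tested. A match is a description of the letters, and no match says only that they are not in these 250 bases.

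Isozymes of the same steps and glucose transporters were mixed. Of 20 listed isozymes and glucose transporters, 13 were tested; 5 were higher and 1 lower in transgenic mice, and 2 were higher in knockout-labelled mice, beside 23.0% and 16.4% of all genes called higher. The count in knockout-labelled mice was near that background. Hk2, the inducible hexokinase, rose by a log2 fold change of 1.17 in transgenic mice (SE 0.23, edgeR adjusted p = 0.00104) and 1.17 in knockout-labelled mice (SE 0.24, adjusted p = 0.00236). It read 6.10, 7.19, 5.25, 5.58 and 6.43 CPM in transgenic libraries, 5.73, 5.02, 6.81, 10.1 and 3.11 CPM in knockout-labelled libraries, and 2.15, 2.63 and 3.64 CPM as the lowest, median and highest of the controls. Despite that rise Hk2 stayed a minor isozyme, with 2.51 ± 0.23% of hexokinase TPM in transgenic, 2.57 ± 1.19% in knockout-labelled and 1.23 ± 0.32% in control mice, against 97.1%, 97.4% and 98.6% for Hk1. Adpgk, an ADP-dependent glucokinase, rose by 0.31 (SE 0.06, adjusted p = 0.00112) in transgenic and 0.37 (SE 0.06, adjusted p = 0.000963) in knockout-labelled mice.

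Phosphofructokinase was mainly Pfkp, the platelet type, with 66.0 ± 1.16% of the TPM of that step in transgenic, 63.8 ± 2.11% in knockout-labelled and 66.8 ± 1.11% in control mice. Pfkp rose by 0.21 in transgenic mice (SE 0.06, edgeR adjusted p = 0.0107) and had a log2 fold change of 0.04 in knockout-labelled mice. The share of Pfkl was 20.1 ± 1.28%, 20.5 ± 1.22% and 17.2 ± 0.81% in transgenic, knockout-labelled and control mice. Eno1, the main enolase and the step between Pgam1 and Pkm, rose by 0.33 in transgenic mice (SE 0.07, adjusted p = 0.00181) and had a log2 fold change of 0.20 in knockout-labelled mice (SE 0.07, adjusted p = 0.0540). Aldoa made up 99.7%, 99.7% and 99.6% of aldolase TPM, and Pkm over 99.9% of pyruvate kinase TPM in every group.

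Ldhb, the heart-type lactate dehydrogenase subunit, which favours pyruvate, was lower in transgenic mice while Ldha was higher. It read 127.0, 116.8, 114.5, 95.3 and 121.6 CPM in transgenic libraries, 124.1, 170.0, 143.6, 142.3 and 137.3 CPM in knockout-labelled libraries, and 101.2, 157.7 and 186.2 CPM as the lowest, median and highest of the controls. Control 6, the lowest control, lay inside the transgenic range, and the other 5 controls lay above it. Ldhb fell by 0.41 on the log2 scale in transgenic mice (SE 0.12, edgeR adjusted p = 0.0156), and its log2 fold change in knockout-labelled mice was -0.12 (SE 0.13, adjusted p = 0.511). Ldha thus made up 76.6 ± 2.34% of lactate dehydrogenase TPM in transgenic, 70.6 ± 3.89% in knockout-labelled and 65.0 ± 5.90% in control mice (SD, n = 5, 5 and 6), and control 6 had the highest control share, 76.2%.

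**Figure D4:**
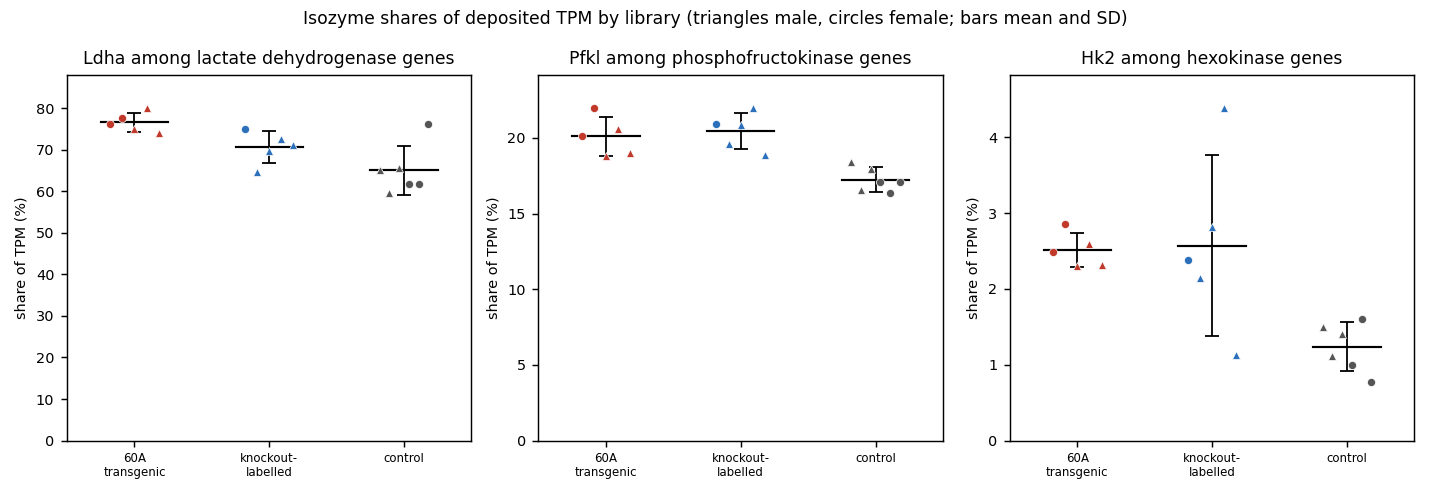
Shares of deposited TPM (vertical axis, percent, from 0) held by Ldha among lactate dehydrogenase genes, Pfkl among phosphofructokinase genes and Hk2 among hexokinase genes; each point is 1 library (triangles male, circles female), with mean and SD bars. Ldha averages 76.6% in transgenic, 70.6% in knockout-labelled and 65.0% in control libraries, and Hk2 is below 5% in every library.

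Among genes that feed or drain glycolysis, the glucose transporter Slc2a1 rose by 0.38 in transgenic mice (SE 0.11, edgeR adjusted p = 0.0106) and had a log2 fold change of 0.28 in knockout-labelled mice (adjusted p = 0.0647), while Slc2a3, another transporter, had 0.02 in transgenic and 0.04 in knockout-labelled mice. Of 12 flux regulators and lactate export genes, 11 were tested, with 2 higher and 1 lower in each group, near the 23.0% and 16.4% of all genes called higher. Slc16a1, a lactate transporter, had log2 fold changes of 0.34 (SE 0.12, adjusted p = 0.0385) and 0.44 (SE 0.12, adjusted p = 0.0172), called in 6 and 13 of the 16 fits without 1 library. Bsg, the chaperone of that transporter, rose by 0.16 and 0.15, called in 14 and 12 of those fits. Pfkfb2, which makes and degrades the activator of phosphofructokinase, fell by 0.24 in transgenic mice (adjusted p = 0.00798) and by 0.20 in knockout-labelled mice (adjusted p = 0.0325).

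Beyond glycolysis, 5 of 7 pentose phosphate genes were higher in both groups, among them G6pdx, the entry enzyme, at 0.38 in transgenic and 0.32 in knockout-labelled mice. Of 16 genes of the tricarboxylic acid cycle, 12 were higher in transgenic and 13 in knockout-labelled mice, with 0 lower, for example Idh3a at 0.47 and 0.38. In the main fit the shares of both lists lay above the 23.0% and 16.4% of all genes called higher. Across the settings tried, 2 to 12 tricarboxylic acid cycle genes were higher in transgenic and 0 to 13 in knockout-labelled mice. For pentose phosphate genes the count ran from 1 to 5 in each group. For pyruvate entry into mitochondria, 2 of 12 were higher in transgenic mice (the carrier Mpc1 and the kinase Pdk1) and 1 of 12 in knockout-labelled mice (Pdk3), shares below the 23.0% and 16.4% of all genes. Hypoxia targets outside glycolysis were mixed. Of 15 tested, 5 were higher and 1 lower in transgenic mice, and 1 was higher and 1 lower in knockout-labelled mice. The share higher was somewhat above the 23.0% of all genes in transgenic mice and below the 16.4% in knockout-labelled mice. Fam162a rose by 0.53 and 0.44, and Kdm3a fell by 0.29 and 0.23. Of 8 tested factors that drive glycolytic genes, 2 were higher and 1 lower in transgenic mice, and 1 was higher and 1 lower in knockout-labelled mice, near the shares over all genes. Myc rose by 1.499 in transgenic mice (SE 0.26, edgeR adjusted p = 0.000638) and 1.57 in knockout-labelled mice (SE 0.26, adjusted p = 0.00129). Mlxip, a glucose-responsive transcription factor, fell by 0.29 in transgenic mice (SE 0.08, edgeR adjusted p = 0.00835) and by 0.31 in knockout-labelled mice (SE 0.08, adjusted p = 0.00955). Epas1, which encodes HIF-2 alpha and was chosen after its values were seen as the other factor called higher, rose by 0.57 in transgenic mice (SE 0.21, edgeR adjusted p = 0.0451) and had 0.44 in knockout-labelled mice (adjusted p = 0.152). Hif1a had log2 fold changes of -0.07 and -0.04 and was not called. Myc read 28.4 to 35.2 CPM in transgenic, 22.2 to 60.1 CPM in knockout-labelled and 8.32 to 17.5 CPM in control libraries.

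**Figure D5:**
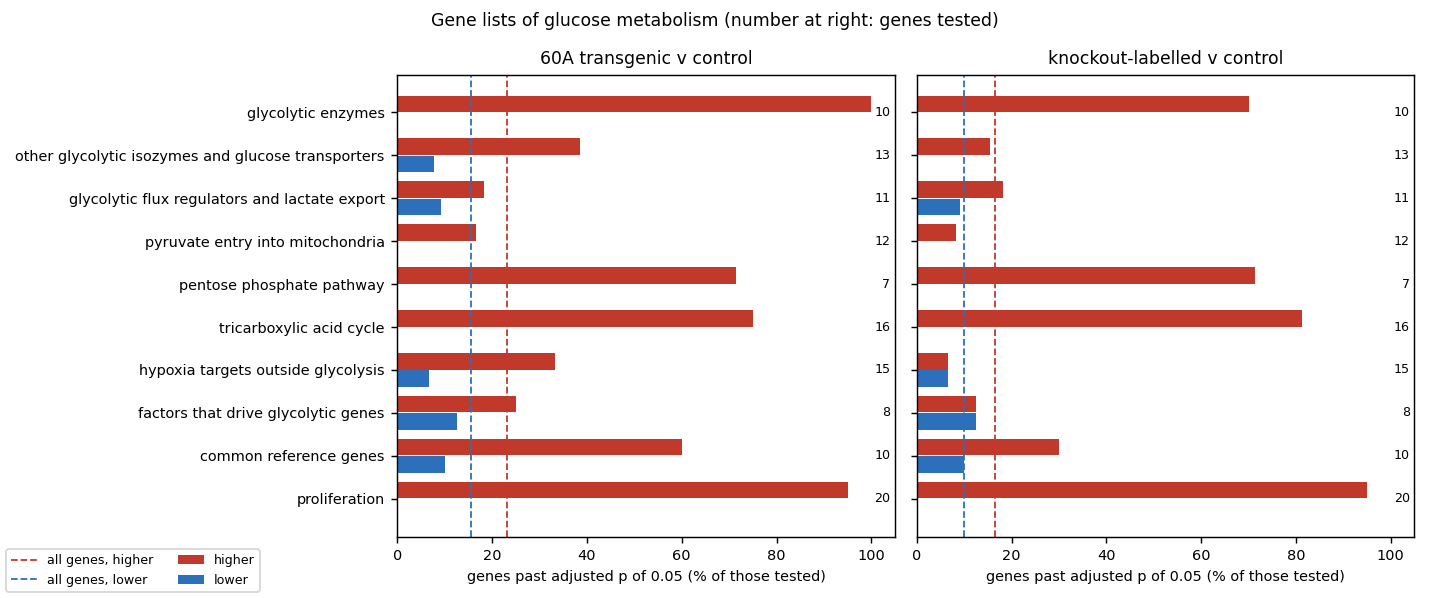
Percent of the tested genes of each of the 10 lists shown that were higher (red) or lower (blue) than controls at an adjusted p under 0.05, for transgenic mice on the left and knockout-labelled mice on the right; dashed lines give the same percent over all genes tested, and the number at the right edge is the number of genes tested. Of these lists, glycolytic enzymes, pentose phosphate genes, tricarboxylic acid cycle genes, common reference genes and proliferation genes lie to the right of the red line in both panels.

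Other gene groups were read in the same fits, and not all of them rose where the enzymes did. Their part in the enzyme differences was not tested. Of all 14933 genes tested, 3438 were called higher and 2327 lower in transgenic mice, and 2449 higher and 1493 lower in knockout-labelled mice. Proliferation genes were higher for 19 of 20 in both groups, with summed levels of 5120 to 6866 CPM in transgenic, 4704 to 7125 CPM in knockout-labelled and 3298 to 4816 CPM in control libraries. Immediate-early and handling genes were lower for 8 of 10 tested in both groups, at 303 to 353 CPM in transgenic, 297 to 470 CPM in knockout-labelled and 502 to 787 CPM in control libraries. B cell markers were higher for 7 of 8 tested in transgenic mice and lower for 2 in knockout-labelled mice, and summed to 59.5 to 112 CPM in transgenic, 3.55 to 5.92 CPM in knockout-labelled and 4.90 to 9.91 CPM in control libraries. Antigen-presenting and myeloid markers were higher for 8 of 9 tested in transgenic and 4 of 9 in knockout-labelled mice, and summed to 71.2 to 108 CPM in transgenic, 17.1 to 102 CPM in knockout-labelled and 14.9 to 39.7 CPM in control libraries, and no gene of either list was at 0 throughout a group. Thymic epithelial markers summed to at most 2.26 CPM in any library, with Foxn1 at 0 in controls. Interferon response genes were higher for 3 of 10 in transgenic mice, near the 23.0% of all genes and with 0 to 10 called across the settings tried, and summed to 336 to 1425 CPM in transgenic, 163 to 244 CPM in knockout-labelled and 157 to 727 CPM in control libraries. The libraries named for high class II transcripts were control 1 and knockout-labelled 1 to 3. Without them, 8 enzymes were called in transgenic and 6 in knockout-labelled mice. That fit kept only knockout-labelled libraries 4 and 5, and library 4 was the highest of its group for 7 of the 10 enzymes. Without control 2 and transgenic 3 and 5, named for high interferon response, 8 and 5 were called. These counts are not set beside the share of all genes called higher in the same fits.

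Gapdh is a common reference gene, and so are several others that moved. Of 10 common reference genes, 6 were higher in transgenic mice and 3 in knockout-labelled mice, beside 23.0% and 16.4% of all genes. Ppia, a peptidyl prolyl isomerase, rose by 0.53 and 0.45, and B2m, the class I light chain, rose by 1.27 in transgenic mice and had -0.10 in knockout-labelled mice. B2m was also the reference gene called between transgenic and knockout-labelled mice, at 1.37 (SE 0.18, edgeR adjusted p = 0.000897).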

How the data were processed

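RNA of 16 libraries of sorted thymocytes had been sequenced as stranded libraries, per the labels' protocols, and the submitters' processing notes name Bowtie 1.0.0, SAMtools 0.1.18, edgeR 3.24.3 and the GRCm38 (mm10) build; the program behind the gene values was not given in the sources used. The authors deposited, per the file headers, values per library for 46517 gene identifiers, an estimated count and TPM. Of the counts above 0, 58.7% were whole within 1e-06, and TPM summed to 1000000 in each library. Symbols and positions came from GENCODE M21 for 46005 identifiers; the other 512 held 0.171% of counts.

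Estimated counts were rounded, filtered by group with edgeR 4.0.16 (R 4.3.3), scaled by TMM and fitted to all 14933 genes in 1 quasi-likelihood model of group and sex over 16 libraries, with 12 residual degrees of freedom and Benjamini-Hochberg adjustment at 0.05. The SE is the size of the log2 fold change over the square root of F. DESeq2 1.42.0, limma 3.58.1 and the other settings of the closing section were alternatives. Each library is 1 mouse by its identifier. Libraries held 17955743 to 35637813 counts, which limits precision by counting error only. The titles' replicate numbers were not taken to pair the mice. The enzymes were named by pathway, and the lists, tests and members were chosen with earlier results of these data known. Named genes are the 10 enzymes, tested genes of the isozyme and flux lists, the 2 genes with the smallest p of each other list and comparison, Nfkbid, Hif1a and Myc. Near-identical copies of the enzymes were found in the annotated transcripts by sequence, at 90% identity over 300 nucleotides. Some genes of the lists are not reported here.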

Additional observations from a re-analysis of the deposited data

Results flagged for a closer look

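Among 30 sets of values (10 enzymes in 3 groups), 3 held a library far from the rest of its group by Dixon's test; chance alone marks about 1 in 20 such sets. For Gpi1, transgenic 1 had 293.5 CPM, where the next highest transgenic library had 259.0 CPM. Also for Gpi1, control 6 had 280.1 CPM, where the next highest control had 236.8 CPM. For Aldoa, control 6 had 163.5 CPM, where the next highest control had 142.4 CPM. Control 6 was the highest control for 7 of the 10 enzymes. The cause of these values was not tested.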

How the results depend on the processing

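Across 34 settings per comparison, 883 of the single enzyme values kept their sign and their side of the threshold, 86 lost the call, 4 gained it and 47 changed sign. The number of enzymes called fell to 4 (transgenic) and 3 (knockout-labelled) of 10 in males only, and to 5 and 0 when tested against a fold of 1.2; the males-only fit has fewer samples and the fold test a stricter null. Leaving out each library in turn gave 8 to 10 enzymes in transgenic mice, 6 to 8 in knockout-labelled mice and 0 between them. Genes called against controls were 1428 (transgenic) and 414 (knockout-labelled) against a fold of 1.2, 3160 (transgenic) in males only, and 1438 and 2289 (knockout-labelled) without the libraries high in class II transcripts and in interferon response. Between transgenic and knockout-labelled mice they were 278 with no filter, 342 with DESeq2 (277 higher and 65 lower), 106 in males only and 99 against a fold of 1.2. Leaving out 1 library gave 4687 to 5965, 2863 to 4253 and 122 to 225 genes. Adding near-identical copies, chosen after seeing the data, left 10, 7 and 0 enzymes called.

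The enzymes that changed sign had main estimates near 0, and some turned values lay further from it, such as -0.18 for Pkm. Hk1 in knockout-labelled mice was -0.0054 with the GC and length correction and between -0.0011 and 0.082 with 1 library left out. Between transgenic and knockout-labelled mice, the log2 fold changes of Pgam1 and Pkm were -0.0084 and -0.00090 with RLE size factors, -0.016 and -0.0094 with no filter, -0.0099 and -0.0024 with at least 1 CPM in 5 libraries, -0.0082 and -0.00089 with DESeq2, and -0.047 and -0.053 in males only. Pgam1 was -0.00093 with limma-voom, -0.011 with only the groups compared and -0.042 with the GC and length correction. Gpi1, Pgam1 and Pkm were -0.0027, -0.031 and -0.015 on either log2(TPM + 1) or log2(TPM + 0.1), and -0.074, -0.086 and -0.18 without the libraries high in class II transcripts. With 1 library left out Gpi1 ran from -0.015 to 0.048, Pgam1 from -0.051 to 0.056 and Pkm from -0.055 to 0.079. The cause was not tested.

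Deviations from the group mean in same-numbered mice of different groups had correlations of -0.07 to 0.26. Those of transgenic with knockout-labelled mice were all positive, from 0.008 to 0.26. Differently numbered mice were not compared, so these values cannot show whether the numbers pair the mice. With the replicate block, 10 enzymes were called in transgenic, 8 in knockout-labelled mice and 0 between them, among 5891, 4129 and 166 genes.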
